A study of Mus musculus with 26 samples.

Results

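The fibroblast growth factor (FGF) genes described here are 10 members chosen by name: the ligands Fgf9, Fgf16, Fgf20, Fgf2, Fgf10 and Fgf18, and the receptors Fgfr1, Fgfr2, Fgfr3 and Fgfr4. All 10 were found, by gene identifier and symbol, among the 57186 genes of the count table of wild type (WT) and 4 deletions and among the 31053 genes of the Meis1 table. Polyadenylated RNA was sequenced from 26 samples of gonads labelled XY at embryonic stage E13.5, freed from the mesonephros by dissection. There were 3 WT samples, 4 samples of a Meis1 knockout (KO), and samples of the Fgf9 deletions named Δ306 (3), Δ225 (6), Δ104 (4) and Δ93 (6). Meis1 encodes a homeodomain transcription factor. The labels give neither the extent of any deletion, nor whether it reaches an exon of Fgf9, nor the strain, litters or number of animals behind a sample, so p-values measure the spread between these samples only. The question put to the data was whether related ligands or receptors differ where Fgf9 is low.

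FGF ligands are secreted proteins that bind receptor tyrosine kinases together with heparan sulfate on the cell surface, and the receptors then drive the RAS and MAP kinase cascade. FGF9, FGF16 and FGF20 form a subfamily with similar receptor preferences. In the XY gonad, FGF9 acts through FGFR2 to sustain SOX9 and the Sertoli cell fate and to hold back WNT4, a signal of the pre-granulosa cells that support the fetal ovary. Mice that lack Fgf9, or Fgfr2 in the gonad, can develop ovarian features in XY gonads.

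Sequencing depth was 11.58 to 53.39 M counts per library (median 36.73) in the table of WT and the deletions and 35.47 to 51.73 M in the Meis1 table, which repeats the WT libraries. Levels are given as counts per 1000000 of the library (CPM), with library sizes scaled by the trimmed mean of M-values (TMM). In 7 libraries labelled XY (Δ306 replicate 3, Δ225 replicate 4, Δ104 replicate 3 and Δ93 replicates 3 to 6) the summed CPM of the Y-linked genes Ddx3y, Eif2s3y, Kdm5d and Uty was under 1/10 of the WT median of 31.6 CPM, while Xist reached at most 6.42 CPM in any library. Y-linked sums below WT were not confined to these libraries. They were 31.2 to 77.2 CPM in WT, 0.141 to 11.7 in Δ306 and 0.0265 to 6.60 in Δ93. In Δ104 they were 1.92 to 36.2 CPM and in Δ225 0.199 to 20.5 CPM. Meis1 KO was at 3.67 to 15.8 CPM, against 33.3 to 81.6 CPM for WT in the Meis1 table. WT replicate 1 stood apart in germ-cell markers, at 15.3 CPM summed over 7 genes against 457 and 652 CPM in the other WT libraries. Mitochondrial genes took 11.6% of the counts of Δ225 replicate 1, against 0.831% to 1.79% in WT and 2.23% to 5.47% in the other deletion libraries, and this library had the lowest median correlation with its own group (0.909). Blood markers (6 genes) summed to 47788 and 47997 CPM in Δ93 replicates 1 and 4, against 4567 to 7179 CPM in the other Δ93 libraries. Summed over 10 genes, Sertoli markers were 2367 to 2779 CPM in WT, 127 to 629 in Δ306, 81.0 to 1043 in Δ93, 83.2 to 2278 in Δ104 and 794 to 2518 in Δ225. Pre-granulosa markers, also 10 genes, summed to 117 to 171 CPM in WT, 490 to 907 in Δ306, 581 to 1311 in Δ93, 119 to 994 in Δ104 and 133 to 172 in Δ225. Mesonephric duct and tubule markers (8 genes) summed to 92.2 to 105 CPM in WT, 166 to 231 in Δ306, 168 to 260 in Δ93, 91.4 to 255 in Δ104 and 94.9 to 165 in Δ225, so Δ306 and Δ93 lay above WT although the gonads had been freed from the mesonephros. Interstitial progenitor and coelomic epithelium markers (8 genes) summed to 1717 to 1944 CPM in WT, 976 to 1155 in Δ306, 1051 to 1351 in Δ93, 1256 to 2179 in Δ104 and 1425 to 1929 in Δ225. Endothelial markers (5 genes) summed to 444 to 622 CPM in WT, 281 to 401 in Δ306 and 288 to 418 in Δ93. They were at 327 to 409 CPM in Δ104 and 258 to 527 in Δ225. Fetal Leydig markers (6 genes) summed to 930 to 1604 CPM in WT, 43.0 to 95.3 in Δ306 and 55.6 to 324 in Δ93. They were at 42.3 to 1668 CPM in Δ104 and 469 to 3113 in Δ225. Germ-cell sums were 368 to 834 CPM in Δ306, 638 to 1159 in Δ93, 143 to 864 in Δ104 and 343 to 923 in Δ225. No marker of the lists was at 0 throughout a group. In whole gonads, fewer cells of a type and less RNA per cell cannot be told apart, and the part of cell composition in the results on the FGF genes was not tested. The submitters' notes name STAR 2.7.10a and featureCounts for the WT and Δ306 samples and STAR without a version for the other groups, so for Δ225, Δ104 and Δ93 the deposit set and the genotype cannot be told apart in a comparison with WT or with Δ306, nor for Meis1 KO in its comparison with WT.

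Fgf9, the targeted gene, was at 9.85, 9.21 and 9.55 CPM in the WT libraries. It was at 2.94, 2.17 and 2.33 CPM in Δ306, at 2.72, 5.16, 6.98 and 4.52 CPM in Δ104, at 2.30 to 4.75 CPM (median 2.85) in Δ93 and at 3.69 to 16.5 CPM (median 5.43) in Δ225. Every library of Δ306, Δ104 and Δ93 lay below every WT library, and 5 of 6 Δ225 libraries did so, the exception being replicate 3 at 16.5 CPM. Some Fgf9 RNA was present in every library, with at least 58 counts in each Δ225 library and 62 in each Δ93 library. The gene, ENSMUSG00000021974, lies on chromosome 14 at 58070547 to 58112720 on the plus strand (GRCm38, GENCODE M21).

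Fgf9 fell 3.85-fold in Δ306 (log2 fold change −1.94 ± 0.45 SE, adjusted p = 0.0148) and 3.10-fold in Δ93 (−1.63 ± 0.36, adjusted p = 0.00532) by edgeR's quasi-likelihood test with Benjamini-Hochberg adjustment over all genes. In Δ104 the log2 fold change was −0.98 (95% interval −1.81 to −0.15, adjusted p = 0.259), and in Δ225 it was −0.45 (−1.21 to 0.32, adjusted p = 0.535). Neither passed the threshold of 0.05, and the Δ225 interval spans no change. The Δ306 call was lost without Δ306 replicate 2 (adjusted p = 0.0655) or replicate 3 (adjusted p = 0.0704), with log2 fold changes of −1.89 and −1.94. Without Δ225 replicate 3 the Δ225 value was −0.89.

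**Figure D1:**
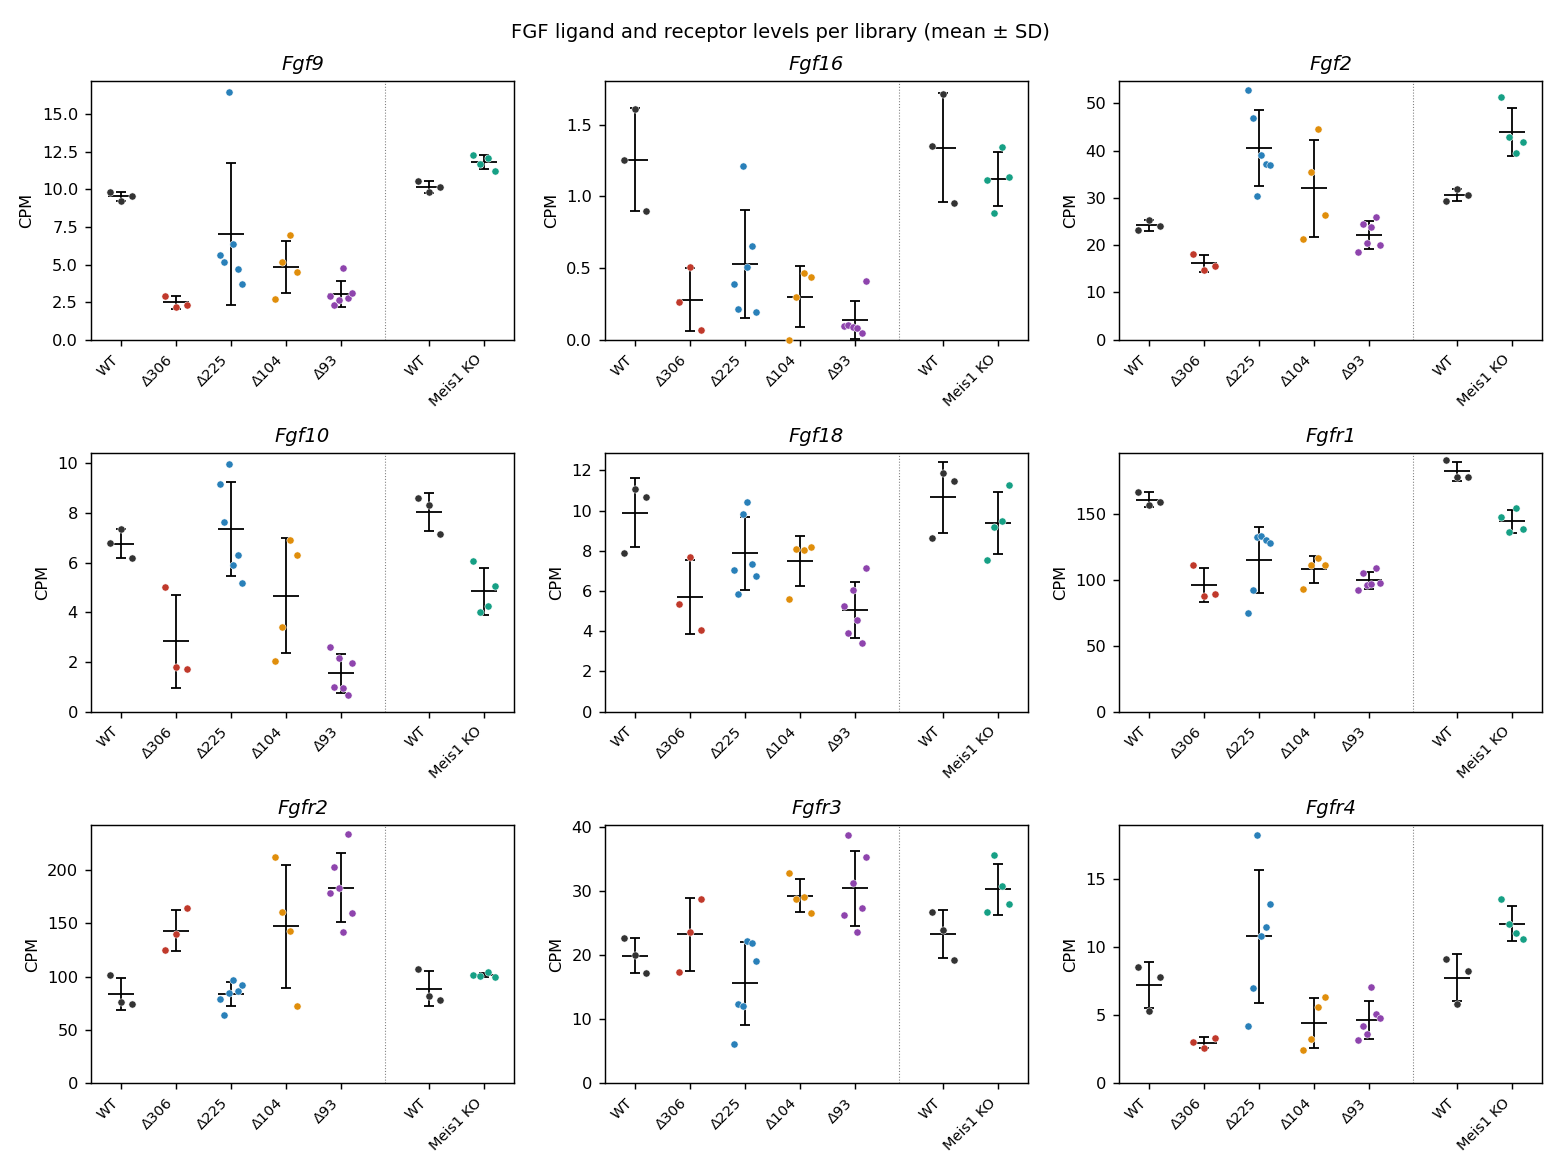
Levels of the 9 FGF genes that were tested, in CPM (vertical axes, each from 0), by group (horizontal axes). Points are libraries in replicate order, the long dash is the mean and the bar its SD. The dotted line parts the table of WT and the deletions from the Meis1 table, which was counted and scaled separately. Fgf9 lies at 9.21 to 9.85 CPM in WT and at 2.17 to 2.94 CPM in Δ306, while Fgfr2 lies at 74.1 to 101 CPM in WT and at 142 to 234 CPM in Δ93.

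Compared per kilobase of merged exons in WT, Fgfr1 was the highest member, at 16.3 ± 0.54 CPM per kb (SD, n = 3). Fgf18 (8.34 ± 1.46) and Fgfr2 (8.13 ± 1.47) followed, and their WT libraries overlapped. Fgf2 was at 3.56 ± 0.17 and Fgfr3 at 2.79 ± 0.38 CPM per kb. Fgf9 (2.05 ± 0.069), Fgfr4 (2.04 ± 0.48) and Fgf10 (1.47 ± 0.13) came next; Fgf9 overlapped Fgfr4, and Fgfr4 overlapped Fgf10. Fgf16 was at 0.763 ± 0.22 CPM per kb, and Fgf20 had no count in WT. The level of Fgf9 RNA per length of merged exons was thus below that of Fgf18 and Fgf2 in every WT library. Merged exons pool all annotated transcripts (4649 bases for Fgf9, 1187 for Fgf18 and 6782 for Fgf2). Which transcripts were expressed was not determined. In CPM, Fgf9 (9.21 to 9.85) and Fgf18 (7.91 to 11.1) overlapped in WT, so their order per kb depends on these lengths. In Δ306 and Δ93 the top of the order was exchanged: Fgfr2 stood first, at 13.9 ± 1.89 (n = 3) and 17.7 ± 3.14 CPM per kb (n = 6), above Fgfr1 at 9.75 ± 1.33 and 10.1 ± 0.64, with no overlap between these receptors' libraries. Fgfr2 also had the highest mean in Δ104, at 14.3 ± 5.58 CPM per kb (n = 4) against 11.0 ± 1.04 for Fgfr1, but their libraries overlapped. In Δ225 Fgfr1 remained first, at 11.7 ± 2.56 CPM per kb (n = 6), overlapping Fgfr2 at 8.12 ± 1.12.

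Of the 10 members, 9 passed the filter on low counts. Against WT, 2 of these 9 were called in Δ306 (Fgf9 and Fgfr1, both lower), beside 6.43% of all 22941 genes tested, with 3.46% called lower and 2.96% higher. In Δ93, 6 of 9 were called, 5 lower (Fgf9, Fgf16, Fgf10, Fgf18 and Fgfr1) and 1 higher (Fgfr2), beside 14.1% of all genes, with 6.84% called lower and 7.23% higher. None was called in Δ225, beside 0.209% of all genes, or in Δ104, beside 0.061%; before adjustment, 2 of 9 in Δ225 and 4 of 9 in Δ104 had a p under 0.05, beside 16.1% and 15.7% of all genes, and DESeq2 called 2 and 1, beside 3.57% and 2.66%. The median log2 fold change of the 9 was −0.80 in Δ306, −0.33 in Δ225, −0.54 in Δ104 and −0.69 in Δ93, beside 0.08, 0.04, 0.06 and 0.06 over all genes. The libraries of deletion and WT did not overlap for 8 of 9 members in Δ306, where 37.6% of all genes did not overlap, and for 7 of 9 in Δ93, where 24.7% did not. In Δ104 it was 4 of 9, beside 18.1%, and in Δ225 2 of 9, beside 10.1%. These 4 comparisons share the same 3 WT libraries.

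**Figure D2:**
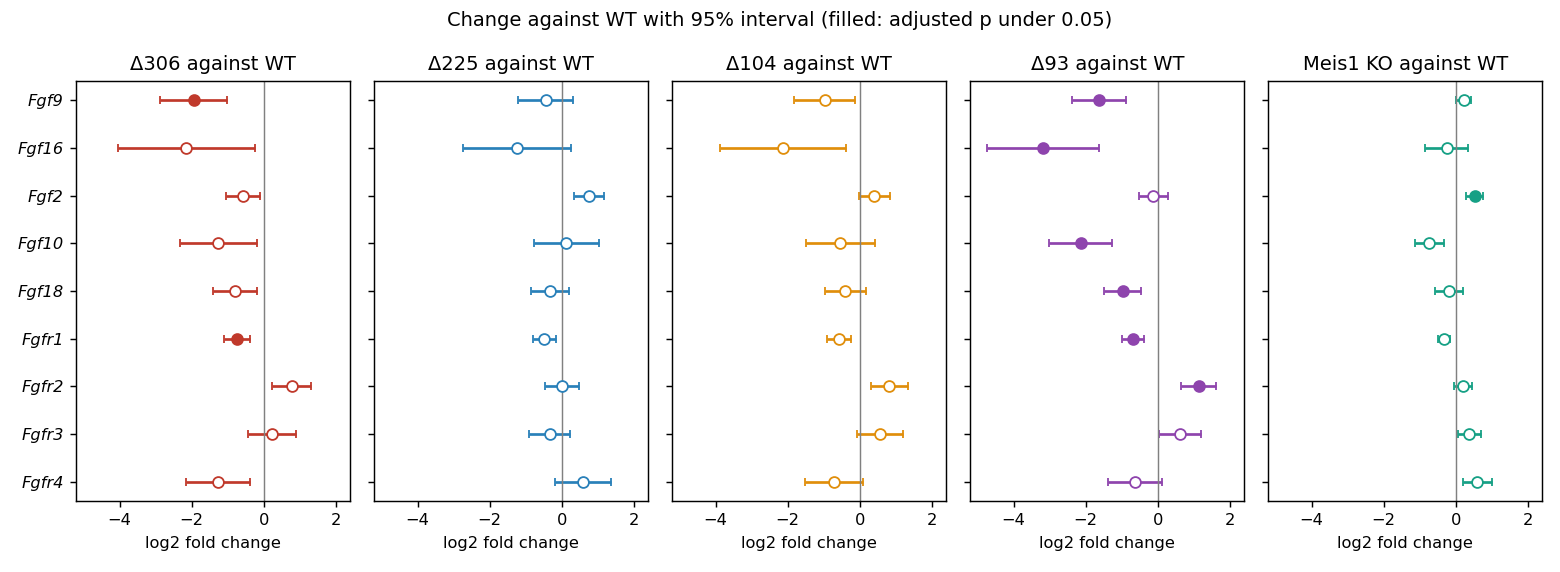
Log2 fold change against WT (horizontal axes) of the 9 tested FGF genes (rows) in the 4 deletions and in Meis1 KO. Points are edgeR estimates, bars are 95% intervals, and filled points had an adjusted p under 0.05. Filled points number 2 in Δ306, 6 in Δ93 and 1 in Meis1 KO, and Fgfr2 is the filled point to the right of 0 in Δ93.

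Without the 7 libraries low in Y-linked RNA, 2 Δ306 and 2 Δ93 libraries remained and no member was called in either, as the share of all genes called dropped to 0.11% in Δ306 and 0.0396% in Δ93. The Y-linked sums of the libraries kept were still below WT, at 11.2 and 11.7 CPM in Δ306 and 6.60 and 3.96 CPM in Δ93. This alternative therefore did not remove the difference in Y-linked RNA. The estimates stayed near those of all libraries: Fgf9 was at −1.94 in Δ306 (adjusted p = 0.155) and −1.92 in Δ93 (adjusted p = 0.103), and Fgfr2 was at 1.14 in Δ93 (adjusted p = 0.0899). Without the library high in mitochondrial counts and both high in blood markers, an alternative chosen after seeing the data, 7 members were called in Δ93, with Fgfr3 added, and none in Δ225. The share of all genes called under this alternative is not given here, so these counts cannot be set beside it.

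The promoters of 3 members are shown because Fgf10 fell with Fgf9 in Δ93 while Fgfr2 rose there. Each run is the 250 bases before the RefSeq start of the gene on its own strand (GRCm38.p6), 5′ to 3′, all in lower case because no motif searched was found. The Fgf9 window is chr14:58072436-58072685 (plus strand), the Fgf10 window is chr13:118714449-118714698 (plus strand), and the Fgfr2 window is chr7:130266809-130267058 (minus strand). All 3 windows lie inside the GENCODE span of their gene.
Fgf9: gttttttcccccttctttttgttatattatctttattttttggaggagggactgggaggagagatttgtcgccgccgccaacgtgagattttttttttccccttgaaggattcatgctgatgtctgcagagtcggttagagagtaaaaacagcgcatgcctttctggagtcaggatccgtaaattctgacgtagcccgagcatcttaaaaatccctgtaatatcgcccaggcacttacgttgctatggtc
Fgf10: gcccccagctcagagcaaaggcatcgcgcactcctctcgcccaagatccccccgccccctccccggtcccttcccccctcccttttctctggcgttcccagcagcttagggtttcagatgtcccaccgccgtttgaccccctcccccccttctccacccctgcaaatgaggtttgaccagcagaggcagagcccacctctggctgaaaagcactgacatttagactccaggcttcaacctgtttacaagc
Fgfr2: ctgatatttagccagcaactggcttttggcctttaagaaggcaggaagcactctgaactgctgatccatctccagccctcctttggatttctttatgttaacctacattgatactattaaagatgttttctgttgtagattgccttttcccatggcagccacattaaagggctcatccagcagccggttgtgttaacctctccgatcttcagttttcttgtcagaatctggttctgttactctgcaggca
On either strand, none of these windows held AACAAT (a core bound by SOX factors), ATCAAAG (a core bound by the TCF and LEF factors of WNT signalling) or ACCGGAAG (a core bound by ETS factors). Nor did the windows of the other 4 members with an entry, Fgf2, Fgf18, Fgfr3 and Fgfr4. Among all 32851 mouse promoter windows of this length, 9.42%, 3.21% and 1.72% held them. The missing letters say nothing about whether these factors act on the genes. The bases G and C made up 44.8% of the Fgf9 window, 61.2% of the Fgf10 window and 44.0% of the Fgfr2 window.

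Fgf16, the nearest relative of Fgf9 with measurable RNA, was at 1.26, 1.61 and 0.897 CPM in WT. It was at 0.263, 0.506 and 0.0706 CPM in Δ306, at 0, 0.295, 0.465 and 0.438 CPM in Δ104, and at 0.0501 to 0.408 CPM (median 0.0905) in Δ93, all below WT. In Δ225 it ranged from 0.195 to 1.21 CPM (median 0.449) and overlapped WT. The fall in Δ93 passed the test (log2 fold change −3.18 ± 0.75 SE, adjusted p = 0.00804). In Δ306 the value was −2.15 (95% interval −4.05 to −0.25, adjusted p = 0.166), in Δ104 −2.13 (−3.89 to −0.38, adjusted p = 0.250) and in Δ225 −1.25 (−2.75 to 0.25, adjusted p = 0.383). The Δ93 libraries held 2 to 16 counts of Fgf16 each, so single reads weigh on these values. Fgf16 lies on the X chromosome at 105764279 to 105774939, plus strand.

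Fgf20, the third member of the subfamily, was near the detection limit. It had 12 counts in all, in 8 of the 22 libraries of WT and the deletions, at most 3 in any of them and 0 in WT. A level under 3 counts, which was 0.0562 to 0.259 CPM depending on the library, was not detectable at this depth. In the Meis1 table it had 3 counts in 2 of 7 libraries. Whether Fgf20 differs between groups could not be tested. Its exons on chromosome 8 (40279166 to 40308331, minus strand) overlap those of Micu3 on the opposite strand by 202 bases.

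Fgf10 encodes a ligand made by mesenchyme that acts on epithelia, mainly through FGFR2. It was at 6.78, 7.34 and 6.17 CPM in WT and at 0.652 to 2.59 CPM (median 1.46) in Δ93, with no overlap. This was a 4.41-fold fall (log2 fold change −2.14 ± 0.42 SE, adjusted p = 0.00263). In Δ306 it was at 5.003, 1.78 and 1.73 CPM, all below WT, and the difference did not pass the test (−1.26, 95% interval −2.32 to −0.20, adjusted p = 0.143). Replicate 1 was the high Δ306 library, and without it the value was −1.97 and passed (adjusted p = 0.0376). Fgf10 was at 2.05, 3.39, 6.92 and 6.32 CPM in Δ104 and at 5.18 to 9.96 CPM (median 6.98) in Δ225, both overlapping WT, with log2 fold changes of −0.54 (adjusted p = 0.564) and 0.12 (adjusted p = 0.908). The gene lies on chromosome 13 at 118669791 to 118792115 (plus strand) and shares 123 exonic bases with the antisense gene Gm16263.

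Fgf18, a ligand best known from skeletal and lung development, was at 7.91, 11.1 and 10.7 CPM in WT, at 3.43 to 7.14 CPM (median 4.89) in Δ93 and at 5.35, 7.67 and 4.06 CPM in Δ306. Neither deletion overlapped WT. The fall passed the test in Δ93 (log2 fold change −0.97 ± 0.25 SE, adjusted p = 0.0126) but not in Δ306 (−0.80, 95% interval −1.41 to −0.18, adjusted p = 0.112). Leaving out WT replicate 2 or WT replicate 3 ended the Δ93 call, at −0.90 (adjusted p = 0.0663) and −0.92 (adjusted p = 0.0556). In Δ104 it was at 5.61, 8.11, 8.02 and 8.17 CPM, and in Δ225 at 5.86 to 10.4 CPM (median 7.19). Both overlapped WT, with adjusted p of 0.459 and 0.503. Fgf18 is on chromosome 11 at 33117430 to 33147400, minus strand.

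Fgf2, a broadly expressed ligand that binds several FGF receptors, followed another order of groups. It was at 23.1, 25.3 and 24.1 CPM in WT and lower in each Δ306 library, at 18.1, 14.7 and 15.6 CPM. It was at 30.4 to 52.8 CPM (median 38.2) in Δ225, above every WT library, at 21.3, 35.5, 44.7 and 26.5 CPM in Δ104 and at 18.6 to 25.9 CPM (median 22.1) in Δ93, both overlapping WT. None of these differences from WT passed the test: the log2 fold change was −0.58 in Δ306 (95% interval −1.05 to −0.11, adjusted p = 0.126), 0.74 in Δ225 (0.33 to 1.16, adjusted p = 0.117), 0.40 in Δ104 (adjusted p = 0.355) and −0.12 in Δ93 (−0.53 to 0.28, adjusted p = 0.727). The Δ225 value passed in DESeq2 (0.78, adjusted p = 0.0143), and the Δ306 value passed in a fit of WT and Δ306 alone (−0.57, adjusted p = 0.0253).

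Between deletions, Fgf2 was 2.51-fold higher in Δ225 than in Δ306 (log2 fold change 1.33 ± 0.21 SE, adjusted p = 0.00061), with no overlap. Of 9 members, 4 were called in that comparison, 3 higher and 1 lower in Δ225, beside 13.2% of all genes (6.47% higher, 6.74% lower). The Fgf2 difference remained called in each alternative, the one without libraries low in Y-linked RNA included (highest adjusted p = 0.0330). Fgf2 lies on chromosome 3 at 37348346 to 37410108 (plus strand), and 640 of its exonic bases overlap Nudt6 on the opposite strand. Since the sources used here do not say whether counting used the strand, its counts are uncertain to that extent; Nudt6 itself was at 0.195 to 4.67 CPM in the Δ225 and Δ93 libraries. WT counts of Fgf2 in the table of WT and the deletions were 0.850 times those in the first deposited table, against 1.09 for all genes.

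Fgfr1, the most abundant receptor in WT, was at 167, 157 and 159 CPM there. It was at 111, 88.0 and 89.5 CPM in Δ306, at 93.3, 112, 117 and 112 CPM in Δ104, at 92.6 to 109 CPM (median 97.6) in Δ93 and at 74.7 to 133 CPM (median 129) in Δ225. No library of any deletion reached the lowest WT library. The fall passed the test in Δ306 (log2 fold change −0.74 ± 0.18 SE, adjusted p = 0.0176) and in Δ93 (−0.69 ± 0.15, adjusted p = 0.00472). In Δ104 it was −0.57 (95% interval −0.92 to −0.23, adjusted p = 0.131) and in Δ225 −0.48 (−0.80 to −0.17, adjusted p = 0.160); DESeq2 called both (adjusted p = 0.0215 and 0.0438). The Δ306 call was lost without Δ306 replicate 2 (adjusted p = 0.0858), Δ306 replicate 3 (0.0892) or WT replicate 1 (0.0581), with estimates of −0.72 to −0.74. Fgfr1 (chromosome 8, 25513654 to 25575718, plus strand) shares 164 exonic bases with the antisense gene Gm16159.

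Fgfr2, the receptor known to carry the FGF9 signal in the XY gonad, moved the other way. WT libraries were at 101, 76.3 and 74.1 CPM, and Δ93 libraries at 142 to 234 CPM (median 181), with no overlap. The 2.18-fold rise passed the test (log2 fold change 1.13 ± 0.24 SE, adjusted p = 0.00413). In Δ306 Fgfr2 was at 125, 140 and 164 CPM, all above WT, with a log2 fold change of 0.77 (95% interval 0.23 to 1.32, adjusted p = 0.0802). That value passed in DESeq2 (0.78, adjusted p = 0.0469), in a fit of WT and Δ306 alone (0.78, adjusted p = 0.0240) and in the first deposited table (0.84, adjusted p = 0.0144). In Δ225 the gene was at 64.0 to 97.0 CPM (median 85.8), overlapping WT (−0.00, 95% interval −0.47 to 0.47). Gene counts do not separate the epithelial and mesenchymal splice forms of this receptor. The annotated span on chromosome 7, 130162451 to 133123350 on the minus strand, includes 314 exonic bases shared with Ctbp2.

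The Δ104 libraries spread widely in Fgfr2, at 212, 161, 143 and 73.0 CPM in replicates 1 to 4. The log2 fold change against WT was 0.81 (95% interval 0.30 to 1.33, adjusted p = 0.156), and without replicate 4 it was 1.04 and passed (adjusted p = 0.00758). In the same order, pre-granulosa markers summed to 994, 514, 238 and 119 CPM and Sertoli markers to 83.2, 550, 1302 and 2278 CPM. Mesonephric duct and tubule markers summed to 255, 170, 142 and 91.4 CPM, also in the order of Fgfr2. The library highest in Fgfr2 was thus highest in pre-granulosa and mesonephric markers and lowest in Sertoli markers. It was also lowest in Fgf9 (2.72 CPM), Fgf10 (2.05 CPM) and Fgf2 (21.3 CPM). In replicates 1 to 3 of Δ306, with Fgfr2 at 125, 140 and 164 CPM, pre-granulosa sums were 490, 593 and 907 CPM and Sertoli sums 548, 629 and 127 CPM. Mesonephric sums there were 166, 179 and 231 CPM. Within Δ93 the orders of Fgfr2 and pre-granulosa markers differed: replicate 4 had the lowest Fgfr2 (142 CPM) with a pre-granulosa sum of 1127 CPM, while replicate 1 had Fgfr2 at 179 CPM with a sum of 674 CPM. The mesonephric sums of these Δ93 replicates were 197 and 182 CPM. Replicates 5, 2 and 3 of Δ93, with Fgfr2 at 234, 202 and 183 CPM, had mesonephric sums of 260, 227 and 223 CPM. The part of any of these cell types in the Fgfr2 values was not tested.

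Fgfr3 and Fgfr4 were not called against WT in any deletion. Fgfr3, which shares ligands with Fgfr2, was at 22.6, 20.03 and 17.2 CPM in WT, at 17.4, 23.6 and 28.8 CPM in Δ306 and at 6.15 to 22.3 CPM (median 15.7) in Δ225. It was at 32.8, 28.8, 29.1 and 26.7 CPM in Δ104 and at 23.6 to 38.8 CPM (median 29.3) in Δ93, and in these groups every library lay above WT. The log2 fold changes were 0.55 in Δ104 (95% interval −0.08 to 1.19, adjusted p = 0.368) and 0.61 in Δ93 (0.02 to 1.2, adjusted p = 0.162). Without Δ93 replicates 1 and 4 and Δ225 replicate 1, the Δ93 value was 0.72 and passed (adjusted p = 0.0388). Fgfr3 is on chromosome 5 at 33721674 to 33737068, plus strand, where 998 exonic bases overlap G630022F23Rik on the opposite strand.

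Fgfr4 was at 8.57, 5.34 and 7.81 CPM in WT and at 3.07, 2.59 and 3.36 CPM in Δ306, with no overlap, yet the value of −1.27 (95% interval −2.16 to −0.38) missed the threshold (adjusted p = 0.0782). It passed in DESeq2 (adjusted p = 0.0262), in a fit of WT and Δ306 alone (0.0196) and in the first table (0.0176), with estimates of −1.21 to −1.26. Fgfr4 was at 2.47, 3.29, 5.58 and 6.37 CPM in Δ104 and at 3.16 to 7.06 CPM (median 4.49) in Δ93, with adjusted p of 0.370 and 0.249. In Δ225 it spread from 4.20 to 18.2 CPM (median 11.2, adjusted p = 0.419). The lowest value was that of replicate 1, the library with 11.6% mitochondrial counts. The same library was lowest of Δ225 in Fgfr1 (74.7 CPM) and Fgfr3 (6.15 CPM) and highest in Fgf2 (52.8 CPM). Replicate 3 of Δ225, the library with the highest Fgf9, was also the highest in Fgfr4. This library differed in cell markers as well: fetal Leydig markers summed to 469 CPM, against 2052 to 3113 CPM in the other Δ225 libraries. Fgfr4 is on chromosome 13 at 55152640 to 55168759, plus strand.

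The make-up of the receptors was computed per library as each receptor's share of the summed CPM per kb of all 4. In WT, Fgfr1 made up 55.9% ± 3.07 (SD, n = 3) and Fgfr2 27.6% ± 2.44. In Δ93 the shares were 30.4% ± 2.07 and 52.8% ± 3.99 (n = 6), and in Δ306 35.4% ± 6.17 and 49.9% ± 4.02 (n = 3). No library of Δ93 or Δ306 overlapped WT in either share. The Fgfr1 share lay below WT (52.4% to 57.8%) without overlap in Δ225 (43.9% to 48.6%) and Δ104 (26.8% to 47.3%) as well, while the Fgfr2 share overlapped WT in both, at 28.8% to 44.3% in Δ225 and 29.6% to 58.3% in Δ104. The 44.3% was that of Δ225 replicate 1, the library high in mitochondrial counts. The other Δ225 libraries had Fgfr2 shares of 28.8% to 32.3%. In Meis1 KO, where Fgf9 was not lower, the Fgfr1 share was 43.4% to 47.2% against 53.6% to 59.0% in WT of that table, and the Fgfr2 share 30.4% to 31.6% against 24.6% to 28.8%. The ratio of Fgfr2 to Fgfr1 per length was 0.496 ± 0.073 in WT, 1.45 ± 0.34 in Δ306, 0.716 ± 0.15 in Δ225, 1.34 ± 0.64 in Δ104 and 1.75 ± 0.23 in Δ93, and 0.674 ± 0.027 in Meis1 KO against 0.464 ± 0.065 in WT of the Meis1 table. The summed level of the 4 receptors was 29.3 ± 2.65 CPM per kb in WT, 27.7 ± 1.91 in Δ306 and 33.4 ± 3.79 in Δ93. It was 30.6 ± 4.79 in Δ104 and 25.0 ± 5.30 in Δ225, where it ranged from 17.3 to 29.1 and was lowest in replicate 1. The means of this sum differed less between groups than those of the ratio. The ratio was not tested on its own, since it combines the Fgfr1 and Fgfr2 values already tested.

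**Figure D3:**
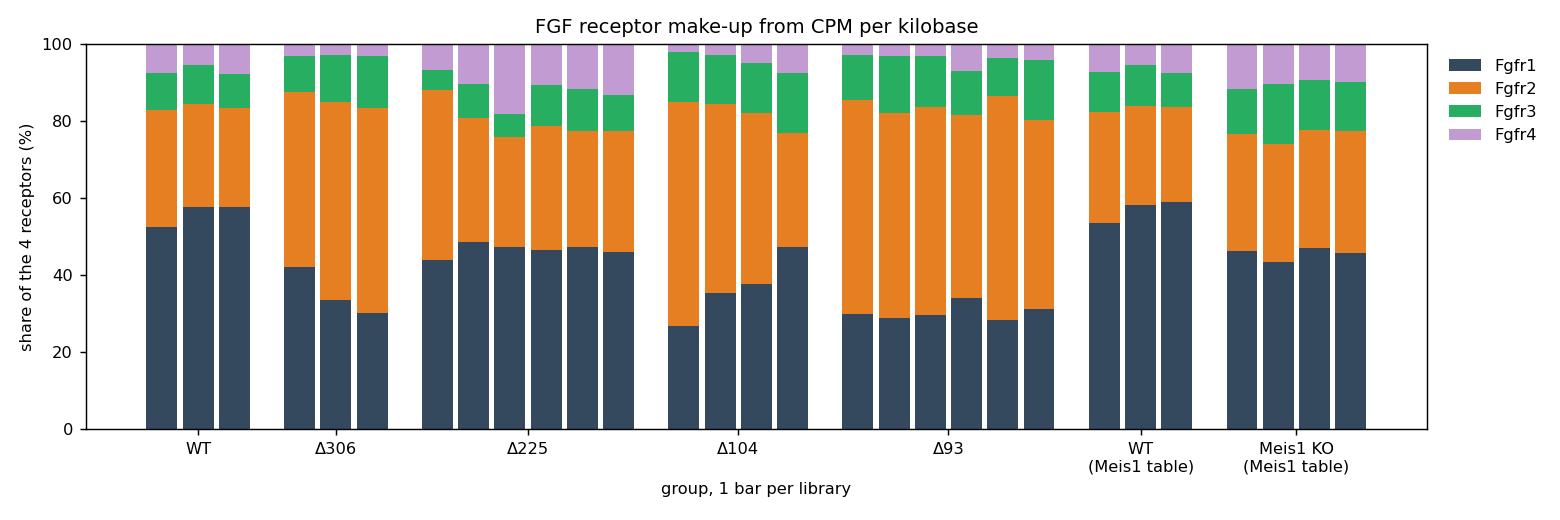
Share of each FGF receptor in the summed CPM per kilobase of all 4 (vertical axis, percent), 1 bar per library, grouped by genotype. Fgfr1 has the largest share in each WT library (52.4% to 57.8%) and Fgfr2 in each Δ306 and Δ93 library (45.4% to 58.1%).

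Deletions were also compared with each other in the same fit. Δ225 and Δ93, the pair with most samples (6 each) and the same form of labels, differed at 8 of 9 members, 6 higher and 2 lower in Δ225, beside 20.8% of all genes (9.96% higher, 10.8% lower). Higher in Δ225 were Fgf10 (log2 fold change 2.26 ± 0.37 SE, adjusted p = 0.000298), Fgf16 (1.93 ± 0.68, 0.0478), Fgfr4 (1.22 ± 0.30, 0.00651), Fgf9 (1.19 ± 0.31, 0.00992), Fgf2 (0.87 ± 0.16, 0.00073) and Fgf18 (0.64 ± 0.21, 0.0343). Lower in Δ225 were Fgfr2 (−1.13 ± 0.19, adjusted p = 0.000304) and Fgfr3 (−0.95 ± 0.23, 0.00565). Fgfr1 was not called (0.21, 95% interval −0.05 to 0.47, adjusted p = 0.240). The libraries did not overlap for 4 of 9 members (Fgf2, Fgf10, Fgfr2 and Fgfr3), beside 11.0% of all genes. Without the libraries low in Y-linked RNA, which leaves 2 Δ93 libraries, Fgfr2 alone was called (−1.2, adjusted p = 0.0462), beside 2.4% of all genes. Without Δ225 replicate 3 the Fgf9 difference was 0.71 and still called. The Fgf16 and Fgf18 calls were lost on leaving out any of several single libraries, with adjusted p up to 0.130 and 0.0866.

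Δ225 exceeded Δ306 in Fgf9 (log2 fold change 1.499 ± 0.40 SE, adjusted p = 0.0186), Fgf2 (above) and Fgfr4 (1.85 ± 0.40, adjusted p = 0.00514), and was lower in Fgfr2 (−0.77 ± 0.22, adjusted p = 0.0248). The Fgf9 call was lost without Δ306 replicate 2 (adjusted p = 0.0817) or 3 (0.0859), and the Fgfr2 call on leaving out any single Δ306 replicate (0.0501 to 0.190). No member was called between Δ104 and Δ306 (beside 0.0654% of all genes), Δ93 and Δ306 (0.0785%), Δ225 and Δ104 (0.645%) or Δ93 and Δ104 (0.0523%). Before adjustment, 2, 1, 3 and 3 of 9 members had a p under 0.05, beside 11.1%, 9.0%, 10.6% and 14.5% of all genes. DESeq2 called 1, 0, 3 and 1, beside 1.81%, 0.763%, 1.99% and 2.41%. For Δ93 against Δ306, where both deletions had low Fgf9, the interval of the Fgf9 difference was −0.49 to 1.11, and that of Fgfr2 was −0.12 to 0.83.

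In Meis1 KO, Meis1 itself was at 0.201, 0.695, 0.364 and 0.494 CPM against 109, 62.1 and 64.2 CPM in WT, so these libraries match their labels at the targeted gene. Fgf9 was not reduced: it was at 12.3, 11.7, 12.1 and 11.2 CPM against 10.6, 9.80 and 10.2 CPM in WT (log2 fold change 0.22, 95% interval 0.00 to 0.43, adjusted p = 0.256). Of 9 members, 1 was called, and it was higher, beside 1.8% of the 16791 genes tested in that table (1.27% called higher). This was Fgf2, at 51.2, 42.9, 39.6 and 41.9 CPM against 29.4, 31.9 and 30.6 CPM. It was 1.43-fold higher (0.52 ± 0.10 SE on the log2 scale, adjusted p = 0.0475). The call was lost on leaving out any library but WT replicate 1 (adjusted p of 0.0973 to 0.136). Values just outside the threshold were Fgfr1 (145 ± 8.54 against 183 ± 7.25 CPM, log2 fold change −0.34, adjusted p = 0.0583) and Fgf10 (4.84 ± 0.94 against 8.04 ± 0.77 CPM, −0.73, adjusted p = 0.0743; mean ± SD, n = 4 and 3). Without WT replicate 1, the library low in germ-cell markers, 6 members were called, beside 12.9% of all genes, and DESeq2 on all libraries called 4, beside 9.24%. For 6 of 9 members the groups did not overlap, beside 19.7% of all genes.

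Other genes of the pathway were followed by role in Δ306 and Δ93 against WT, where 2.96% and 7.23% of all genes were called higher and 3.46% and 6.84% lower. Of the other secreted ligands, 9 of 12 were tested. None was called in Δ306, and 2 were lower in Δ93: Fgf5 (0.298 ± 0.19 against 1.15 ± 0.22 CPM, log2 fold change −1.99, adjusted p = 0.0148) and Fgf1 (1.90 ± 0.46 against 3.92 ± 0.82 CPM, −1.04, adjusted p = 0.0315; mean ± SD, n = 6 and 3). The intracellular FGF homologous factors are not secreted and do not act as receptor ligands. Of the 3 tested of 4, Fgf13 was lower in both deletions (10.9 ± 3.53 CPM in Δ306 and 12.3 ± 4.33 in Δ93 against 24.3 ± 1.018 in WT, adjusted p = 0.0480 and 0.0242). In Δ93 Fgf12 was lower (log2 fold change −1.03, adjusted p = 0.0392) and Fgf11 higher (0.96, adjusted p = 0.0330). Among 8 tested of 9 coreceptors and binding proteins, Fgfrl1, a receptor-like protein without a kinase domain, was lower in Δ93 (36.5 ± 7.85 against 68.9 ± 5.56 CPM, −0.92, adjusted p = 0.0208). In Δ306 Fgfrl1 was at 36.4 ± 6.97 CPM, also below WT without overlap, but was not called (−0.92, adjusted p = 0.0746).

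Among 23 heparan sulfate core proteins and enzymes, 1 was higher and 4 were lower in Δ306, and 2 were higher and 5 lower in Δ93. Their higher count in Δ93 was near the 7.23% of all genes. The paired sulfatases Sulf1 and Sulf2, which trim sulfate groups that FGF signalling uses, moved in opposite directions. Sulf1 rose from 143 ± 33.0 CPM in WT to 409 ± 86.7 in Δ306 (log2 fold change 1.52, adjusted p = 0.0188) and 471 ± 116 in Δ93 (1.73, adjusted p = 0.00277). Sulf2 fell from 373 ± 9.59 CPM to 169 ± 52.0 (−1.14, adjusted p = 0.00831) and 182 ± 15.4 (−1.04, adjusted p = 0.0019). The syndecan Sdc3, a membrane core protein, fell in both (−1.14 and −1.12, adjusted p = 0.0172 and 0.00305). None of the 18 tested genes of the cascade below the receptors was called in any of the 4 comparisons of a deletion with WT, nor in Meis1 KO. Their median log2 fold change was −0.10 in Δ306 and −0.04 in Δ93, beside 0.08 and 0.06 over all genes.

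Of 13 feedback inhibitors and ETS-family genes that FGF signalling is known to induce, 5 were lower and 1 higher in Δ306, and 7 lower and 1 higher in Δ93, beside the 3.46% and 6.84% of all genes called lower and the 2.96% and 7.23% called higher. Their median log2 fold change was −0.87 and −0.89. Spry1, an inhibitor of receptor signalling, was at 41.1 ± 4.42 CPM in WT, 16.7 ± 3.35 in Δ306 and 16.6 ± 2.72 in Δ93 (log2 fold changes −1.30 and −1.30, adjusted p = 0.0107 and 0.0014). Dusp6, a phosphatase of ERK, was at 68.9 ± 6.75, 28.8 ± 5.84 and 25.7 ± 7.0 CPM (−1.26 and −1.42, adjusted p = 0.0285 and 0.00237). Dusp5, another ERK phosphatase, was the exception, at 8.11 ± 2.47 CPM in WT, 24.1 ± 6.82 in Δ306 and 34.2 ± 7.34 in Δ93 (1.57 and 2.07, adjusted p = 0.0281 and 0.00193). No gene of this list was called in Δ225 or Δ104. Among cell markers, 7 of 10 pre-granulosa markers were higher in Δ306 and 10 of 10 in Δ93, and 4 of 6 and 5 of 6 fetal Leydig markers were lower. Of 10 Sertoli markers, 0 were called in Δ306 and 3 were lower in Δ93, although their summed levels lay below WT in both. Of 8 interstitial progenitor and coelomic epithelium markers, 4 were lower in Δ306, and 5 were lower and 1 higher in Δ93. Of 8 mesonephric markers, 1 was higher in Δ306, and 2 were higher and 1 lower in Δ93. Their part in these values was not tested.

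Across the 22 libraries of WT and the deletions, log2 CPM of the other members was set beside that of Fgf9 as a description, since the libraries share their group differences. Pearson's r with Fgf9 was 0.73 for Fgf10, 0.73 for Fgf18, 0.68 for Fgfr4, 0.67 for Fgfr1 and 0.49 for Fgf2. It was −0.50 for Fgfr3 and −0.68 for Fgfr2. Among 14091 named genes, the 5 most like Fgf9 were Cd109 (0.87), Cdh4 (0.87), Ccn4 (0.86), Tnc (0.86) and Pdia4 (0.86). The 5 most opposed were Abhd3 (−0.88), Rec8 (−0.87), Etfbkmt (−0.86), Stra8 (−0.86) and Mfsd4b4 (−0.86). Rec8 and Stra8 are genes of meiotic entry in germ cells.

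**Figure D4:**
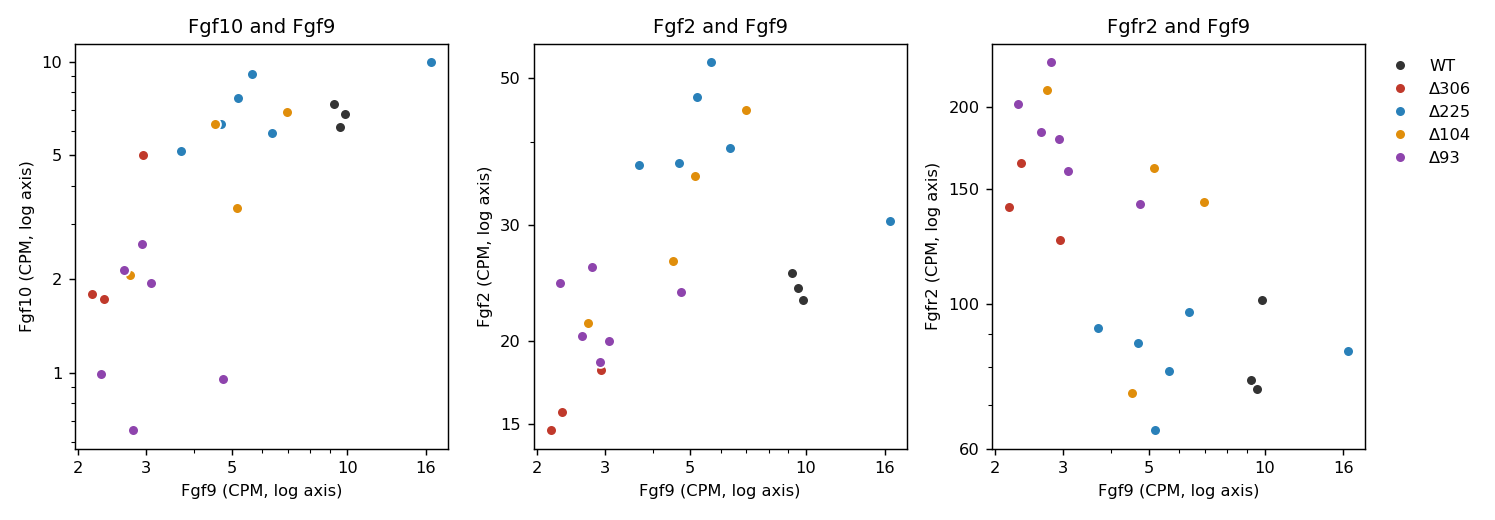
Fgf10, Fgf2 and Fgfr2 (vertical axes, CPM, log scale) against Fgf9 (horizontal axes, CPM, log scale) in 22 libraries, coloured by group. The Δ225 libraries with Fgf9 at 3.69 to 6.36 CPM keep Fgf10 at 5.18 CPM or more and Fgfr2 at 97.0 CPM or less, while the Δ93 libraries with Fgf9 at 2.30 to 4.75 CPM have Fgf10 at 2.59 CPM or less and Fgfr2 at 142 CPM or more. Of the Δ93 libraries, only replicate 4 (4.75 CPM), high in blood markers and low in Y-linked RNA, overlaps Δ225 in Fgf9. The other Δ93 libraries have Fgf9 at 2.30 to 3.09 CPM.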

How the data were processed

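The authors' 3 deposited tables hold raw counts for each gene. They were taken as counts because the values are whole numbers with totals that differ between libraries. The submitters' processing notes name STAR, DESeq2 and the mouse build mm10, and for WT and Δ306 also featureCounts. Whether counting used the strand is not given in the sources used here, although the library kit is a directional one per the labels' protocols. The table of WT and all deletions (22 libraries) gave the comparisons of deletions, and the Meis1 table (7 libraries) that of Meis1 KO. In the first table, which holds WT and a mutant group named only for Fgf9, the mutants were taken as Δ306 from the series' stated design. No column of these tables was left out.

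The test was edgeR's quasi-likelihood F-test (edgeR 4.0.16, R 4.3.3) after filterByExpr and TMM scaling, with Benjamini-Hochberg adjustment within each of 11 comparisons, and a call at an adjusted p under 0.05. A fit of all 22 libraries (22941 genes, 17 residual degrees of freedom) pooled the spread over the groups, and the Meis1 fit had 7 libraries (16791 genes, 5 residual degrees of freedom). SE is the log2 fold change divided by the square root of F. The test was checked on simulated data. That check used only large changes in well-expressed genes, so it does not show how well smaller changes or low counts, as of Fgf16, are detected. Alternatives were DESeq2 1.42.0, other scalings, no filter, fits of 2 groups, the first table, a replicate block, leaving out single libraries and leaving out libraries low in Y-linked RNA. Leaving out libraries with over 10% mitochondrial counts or over 40000 CPM of blood markers was added after seeing the data. Log2 CPM for likeness used a prior count of 2 and genes with a mean of at least 1 CPM. Exon lengths and positions come from GENCODE M21 on GRCm38, and promoters from RefSeq (7 of 10 members had an entry). The 3-count floor covers the error of counting alone, because PCR copies of a molecule cannot be told from separate molecules.

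The members, the pathway lists and the marker lists were chosen with earlier results of these data known. Named genes are the 10 members, at most 3 genes per pathway list with the smallest adjusted p among those called in Δ306 or Δ93 against WT, and the 5 genes most and least like Fgf9. Same-numbered libraries deviated together, with a correlation over 0.1 in every pair, only for Δ225 against Δ104 (4 pairs, 0.10 to 0.34); the numbers there were read as pairs from the data, not from the labels, and the blocked fit called 0 members as well.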

Additional observations from a re-analysis of the deposited data

Results flagged for a closer look

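In 36 combinations of a member and a group of 4 to 6 libraries, 4 held a library far from the others, and chance flags about 1 in 20. Fgf9 in Δ225 replicate 3 was at 16.5 CPM, with the other Δ225 libraries at 3.69 to 6.36 CPM. Fgf9 in Δ93 replicate 4 was at 4.75 CPM, with the others at 2.30 to 3.09 CPM. Fgf18 in Δ104 replicate 1 was at 5.61 CPM, with the others at 8.02 to 8.17 CPM. Fgf16 in Δ93 replicate 6 was at 0.408 CPM, with the others at 0.0501 to 0.105 CPM.

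Deletions differed from each other, by the test of the difference itself, in 12 cases. Δ225 differed from Δ306 in Fgf9 (log2 fold change 1.499), Fgf2 (1.33), Fgfr2 (−0.77) and Fgfr4 (1.85). Δ225 differed from Δ93 in Fgf9 (1.19), Fgf16 (1.93), Fgf2 (0.87), Fgf10 (2.26), Fgf18 (0.64), Fgfr2 (−1.13), Fgfr3 (−0.95) and Fgfr4 (1.22).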

How the results depend on the processing

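The alternatives gave 893 values for 57 results on single genes: 797 kept direction and side of the threshold, 60 lost the call, 26 gained it and 10 changed sign. Of 21 called results, 2 held under every alternative run (Fgf2 in Δ225 against Δ306 and Fgfr2 in Δ225 against Δ93), 13 (these 2 included) held under every alternative other than leaving out the libraries low in Y-linked RNA, and 0 changed sign. The sign changes were Fgfr3 in Δ306, at −0.00026 without Δ306 replicate 3 and −0.0048 without libraries low in Y-linked RNA, and Fgfr2 in Δ225, which was at −0.00029 and became 0.022 with DESeq2, 0.022 with relative log expression (RLE) factors, 0.0026 with 2 groups alone, 0.070 with the replicate block and 0.0085 without libraries high in blood or mitochondrial RNA. On leaving out a library, Fgfr2 in Δ225 ranged from −0.096 to 0.16, changing sign for Δ225 replicate 2 (0.072), Δ225 replicate 3 (0.0028) and WT replicate 1, and Fgfr3 in Δ306 ranged from −0.00026 to 0.36.

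Members called in Δ306 against WT numbered 2, beside 6.43% of all genes, and 4 with DESeq2, beside 11.9%. They numbered 5 in 2 groups alone, 5 in the first table, 0 without libraries low in Y-linked RNA (beside 0.11%) and 0 to 3 on leaving out a library. In Δ93 members called numbered 6, beside 14.1%, then 0 without libraries low in Y-linked RNA (beside 0.0396%) and 5 to 6 on leaving out a library. In Δ225 none was called, but 2 with DESeq2 and 2 with the replicate block (Fgf2 and Fgfr1, adjusted p = 0.0497 and 0.0434), and 0 to 0 on leaving out a library. In Δ104 none was called, but 1 with DESeq2 and 0 to 1 on leaving out a library. Δ225 against Δ93 gave 8 (beside 20.8% of all genes), 1 without libraries low in Y-linked RNA (beside 2.4%) and 6 to 9 on leaving out a library. In the same order, Δ225 against Δ306 gave 4 (beside 13.2%), 1 (beside 1.06%) and 2 to 4. DESeq2 gave 1 for Δ104 against Δ306, 3 for Δ225 against Δ104 and 1 for Δ93 against Δ104, where leaving out a library gave 0 to 1, 0 to 2 and 0 to 2. Without libraries high in blood or mitochondrial RNA (chosen after seeing the data), 1 was called in Δ225 against Δ104, 1 in Δ93 against Δ104 and 6 in Δ225 against Δ306, and the Δ225 against Δ93 calls of Fgf16 and Fgf18 were lost (adjusted p = 0.128 and 0.0771). In Meis1 KO 1 was called, 4 with DESeq2, 0 with RLE factors, 0 with the replicate block (Fgf2, adjusted p = 0.153) and 0 to 6 on leaving out a library. The replicate block also raised Fgfr4 in Δ306 to a call (adjusted p = 0.0468) and ended those of Fgfr2 in Δ225 against Δ306 (0.0580) and Fgf16 in Δ225 against Δ93 (0.0652); outside Δ225 against Δ104 the samples share only a number. The causes were not tested, except that leaving out libraries lowers the number of samples. Leaving out libraries low in Y-linked RNA was not run for Meis1 KO, where none met that limit. Fgf16 (2 to 16 counts in a Δ93 library) and Fgf20 are limited by depth. DESeq2 called a larger share of all genes than the main test in every comparison. For alternatives without a share of all genes beside them, the counts alone do not show a change particular to the members.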
